A study of Mus musculus with 8 samples.

Results

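The genes of the cytosolic ribosomal proteins were compared between mouse T cells from xenografts that were being rejected and from xenografts in tolerant hosts. Members were the probe sets whose single gene symbol carries the stem Rpl or Rps followed by a number, or is Rplp0, Rplp1 or Rplp2. The choice used names only and no measured value. It gave 380 probe sets for 73 genes, out of 21218 probe sets with exactly 1 gene symbol. The large subunit was represented by 269 probe sets for 47 genes and the small subunit by 111 probe sets for 26 genes. Rpl22l1, Rps16 and Rps27a were listed for description and were not analysed here.

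The hosts were wild-type CD1 mice, an outbred stock, that carried grafts derived from human embryonic stem cells (hESC). In 4 samples the host had no treatment and the graft was being rejected. In the other 4 samples the host had been made tolerant by injected antibodies, anti-CD4, anti-CD8 and anti-CD40L. CD3+ T cells were taken out of the grafts at day 30, and their total RNA was hybridised to 1 whole-transcript array per sample. The labels number the samples 1 to 4 in each group but do not state that each came from its own mouse, so the p-values reflect how much these samples vary, which may be technical only. They do not say either whether animals were pooled, and they name no batch.

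A ribosome joins a small subunit, which reads the messenger RNA (mRNA), to a large subunit, which forms the peptide bonds. Each subunit carries many proteins, each present as a single copy per ribosome except for the stalk proteins, and ribosomal protein mRNAs are among the most abundant of most cells. Most of these mRNAs begin with a cytosine followed by a run of pyrimidines, the 5′ terminal oligopyrimidine (TOP) tract, through which mTOR and the RNA-binding protein Larp1 control their translation. T cells enlarge and make ribosomes when they are activated. The mouse genome also holds many processed pseudogenes of ribosomal proteins, whose sequences are close to those of the parent mRNA.

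The start of the transcript is shown for genes that the results below turn on, because the TOP tract is the feature that the family shares at this place. Each sequence holds 15 bases before and 15 bases from the annotated start, 5′ to 3′ on the gene's strand, from RefSeq promoters of build GRCm38.p6. Capitals mark the longest run that opens with C and goes on with C or T for at least 5 bases in all.
Rpl35: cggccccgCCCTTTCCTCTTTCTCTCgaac
Rplp2: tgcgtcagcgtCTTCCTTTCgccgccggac
Rps24: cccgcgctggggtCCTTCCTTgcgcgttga
Rps10: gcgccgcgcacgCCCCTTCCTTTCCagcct
Rps12: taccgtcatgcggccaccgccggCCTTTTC
Rps6: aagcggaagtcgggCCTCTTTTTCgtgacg
Rpl27: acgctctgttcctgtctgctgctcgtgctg
Rpl41: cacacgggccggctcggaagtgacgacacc
Rpl26: ctcgcggcaacttacagaaccggaagtcgc
Rps15: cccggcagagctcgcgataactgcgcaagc
These windows lie at chr2:39005117-39005146 (minus strand), chr7:141447636-141447665 (plus strand), chr14:24490663-24490692 (plus strand), chr17:27635230-27635259 (minus strand) and chr10:23787195-23787224 (minus strand). The other five lie at chr4:86857353-86857382 (minus strand), chr11:101442230-101442259 (plus strand), chr10:128549154-128549183 (minus strand), chr11:68901551-68901580 (plus strand) and chr10:80292416-80292445 (plus strand). The run was 18 bases long in Rpl35, 13 in Rps10 and 10 in Rps6. In Rpl27, Rpl41, Rpl26 and Rps15 no run of 5 bases lay in the window.

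Of the 73 genes, 59 had a promoter in the table, with 71 windows. A run of 5 bases or more lay in 59.2% of the members' windows and in 36.4% of all 32851 windows of the table. A run of 8 or more lay in 36.6% of the members' windows and in 9.26% of all. The run was sought anywhere in the 30 bases on the gene's strand, so that a match is not a mapped cap site. The letters CCGGAA, the core that Ets family factors bind, were sought on both strands in the 250 bases before the start. They occurred in 25 of the 71 members' windows, or 35.2%, and in 3952 of all 32851. The letters GGGCGG were found in 47.9% against 32.7%, AAGATGGC in 4.23% against 1.56% and TATAAA in 5.63% against 12.4%, all on both strands. The 60 bases just before the start are shown for Rpl27, with 2 copies side by side, and for Rps10 and Rpl41, with CCGGAA in capitals.
Rpl27: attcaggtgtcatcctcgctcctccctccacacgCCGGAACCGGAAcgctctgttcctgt
Rps10: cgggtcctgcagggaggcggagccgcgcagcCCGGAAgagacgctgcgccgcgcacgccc
Rpl41: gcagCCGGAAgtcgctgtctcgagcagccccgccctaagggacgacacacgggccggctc
They lie at chr11:101442185-101442244 (plus strand), chr17:27635245-27635304 (minus strand) and chr10:128549169-128549228 (minus strand). A run of 5 or more lay near the start of 68.2% of the 22 genes, with a promoter in the table, whose tolerant values both lay below both rejecting values on the arrays numbered 3 and 4. It lay near the start of 67.6% of the 34 genes whose groups overlapped there. A run of 8 or more lay near the start of 50.0% of those 22 genes, 41.2% of those 34 and 0 of the 3 genes with higher tolerant values. These shares were not tested against each other.

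All levels are log2 values made by robust multi-array averaging (RMA), and all differences are tolerant minus rejecting on that scale. A background line was set on each array from 1182 probe sets of olfactory and vomeronasal receptor genes. Their 99th percentile served as the line, which fell between 0.99 and 1.35. A sample and its array carry the same number. The arrays fell into 2 sets by their number and not by group. Of all 21218 probe sets, 2.54% to 5.73% lay above the line on the 4 arrays numbered 1 and 2, and 10.7% to 17.1% on the 4 numbered 3 and 4. Of the 13 T cell markers measured, Cd3d, Cd247 and Cd28 were at or below the line on all 8 arrays. Cd3e, a chain of the receptor that the cells were isolated by, had log2 values of 1.51 and 2.36 in rejecting samples 3 and 4 and of 2.75 and 3.82 in tolerant samples 3 and 4. The comparisons below were therefore made over all 8 arrays and within each set.

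Ribosomal protein genes took part in this division of the arrays. A gene with several probe sets is represented by the one with the highest mean over the 8 arrays. For the 47 large subunit genes the median log2 value in rejecting samples 1 and 2 was 0.92 and 1.00, and in tolerant samples 1 and 2 it was 0.86 and 0.79. Rejecting samples 3 and 4 gave medians of 1.70 and 2.33, tolerant samples 3 and 4 of 1.86 and 1.96. The 26 small subunit genes had medians of 0.89 and 0.90 in rejecting samples 1 and 2, and of 0.83 and 0.98 in tolerant samples 1 and 2. Their medians on arrays 3 and 4 were 1.71 and 2.18 for rejecting and 1.58 and 1.66 for tolerant cells. In 55 of the 73 genes all 4 arrays numbered 3 and 4 lay above all 4 numbered 1 and 2, and the median difference between the sets was 0.96. Large subunit genes above the line numbered 10 to 17 of 47 on the arrays numbered 1 and 2 and 38 to 40 on the others. Small subunit genes numbered 3 to 9 and 18 to 23 of 26. The highest medians of both subunits were those of rejecting array 4.

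**Figure D1:**
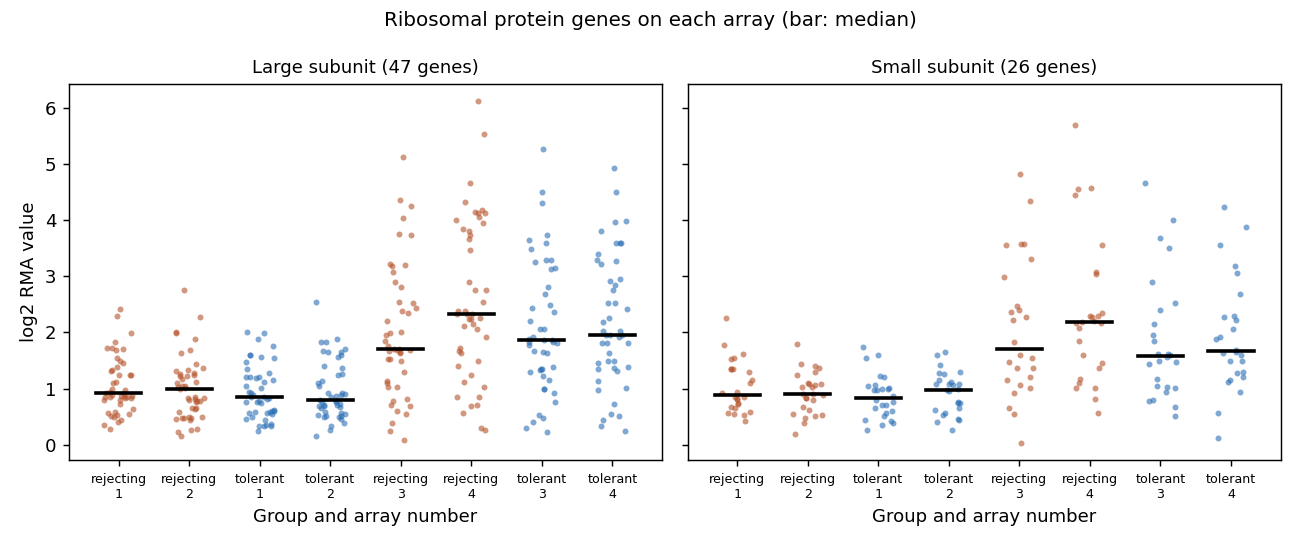
Log2 RMA value of each ribosomal protein gene (points) on each of the 8 arrays, by subunit, with the median as a bar. The large subunit median lies between 0.79 and 1.00 on the arrays numbered 1 and 2 and between 1.70 and 2.33 on those numbered 3 and 4, with rejecting array 4 the highest.

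Over all 8 arrays no ribosomal protein gene differed between tolerant and rejecting T cells beyond the spread between arrays. In limma's test, adjusted by Benjamini-Hochberg over all 21218 probe sets, 0 of 380 members passed an adjusted p of 0.05, as did 0 of all probe sets (0%). The lowest adjusted p of a member was 0.999988. This fit has no term for the set, so the offset between the sets of arrays enters its spread. With the set as a block 0 members passed too, and the adjusted p of Rpl27 was 0.345 in limma's fit. At an unadjusted p under 0.05, 2 members were lower and 1 was higher, against 1.42% and 1.47% of all probe sets. The median difference was -0.075 over the large subunit probe sets and -0.21 over the small subunit probe sets, against 0.00036 over all. By gene, 53 of 73 had a difference below 0, against 49.8% of all genes. RNA came from a bulk of cells, in which fewer cells of a type and less RNA per cell cannot be told apart.

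Among the genes of smallest p in this fit, Rpl13 was above the line on all 8 arrays. It measured 1.98, 1.70, 2.02 and 2.16 in rejecting samples 1 to 4 and 1.61, 1.88, 1.83 and 1.96 in the tolerant ones, a difference of -0.14 ± 0.12 (SE, n = 4 a group). Rpl15, one of the genes mutated in Diamond-Blackfan anaemia, measured 0.85, 1.00, 1.66 and 2.24 for rejecting and 1.29, 1.05, 2.21 and 2.02 for tolerant cells, a difference of 0.21 ± 0.35 (SE, n = 4 a group). The groups overlapped in both genes, and Rpl15 was higher on the arrays numbered 3 and 4 in both groups. Rps15a lay below the line on all 8 arrays, with a difference of -0.14 ± 0.11 (SE, n = 4 a group). Rps13 lay above it on 1 array, with a difference of 0.16 ± 0.17 (SE, n = 4 a group). In limma's fit the adjusted p was 0.999988 in each of these 4 genes.

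On the arrays numbered 3 and 4, where more ribosomal protein genes lay above the line, more of them had lower values in tolerant than in rejecting T cells, but none passed the test. In limma's fit of these 4 arrays, 0 of 380 members had an adjusted p under 0.05, against 0.0518% of all probe sets. The lowest adjusted p of a member was 0.129. At an unadjusted p under 0.05, 60 members were lower and 1 was higher, against 2.57% and 4.64% of all probe sets. These 60 probe sets belonged to 24 genes, and probe sets of 1 gene share sequence. Counted by the representing probe set, 15 genes were lower and 1 was higher at that p.

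The difference was below 0 in 52 of 73 genes, or 71.2%, against 51.7% of all genes with 1 probe set each. Among the large subunit genes 30 of 47 lay below 0, with a median of -0.19. Among the small subunit genes 22 of 26 lay below 0, with a median of -0.28. Over all probe sets the median was -0.0067, and over those above the line on all 4 arrays it was 0.023. In 24 genes both tolerant values lay below both rejecting values, which is 32.9% of the 73, against 20% of all genes. In 4 genes, Rpl26, Rpl39l, Rps21 and Rps4l, both tolerant values lay above both rejecting values, 5.48% against 19.6%. Of the 24 lower genes, 14 belonged to the large and 10 to the small subunit. Among the 52 genes above the line on all 4 arrays, 41 had a difference below 0, against 47.1% of probe sets above the line, and the median was -0.26. Of those 52, 18 were lower without overlap and 1 was higher, against 16.4% and 19.5% of the 1633 probe sets above the line. These 1633 are counted by probe set and not by gene, and they include the members' own probe sets.

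**Figure D2:**
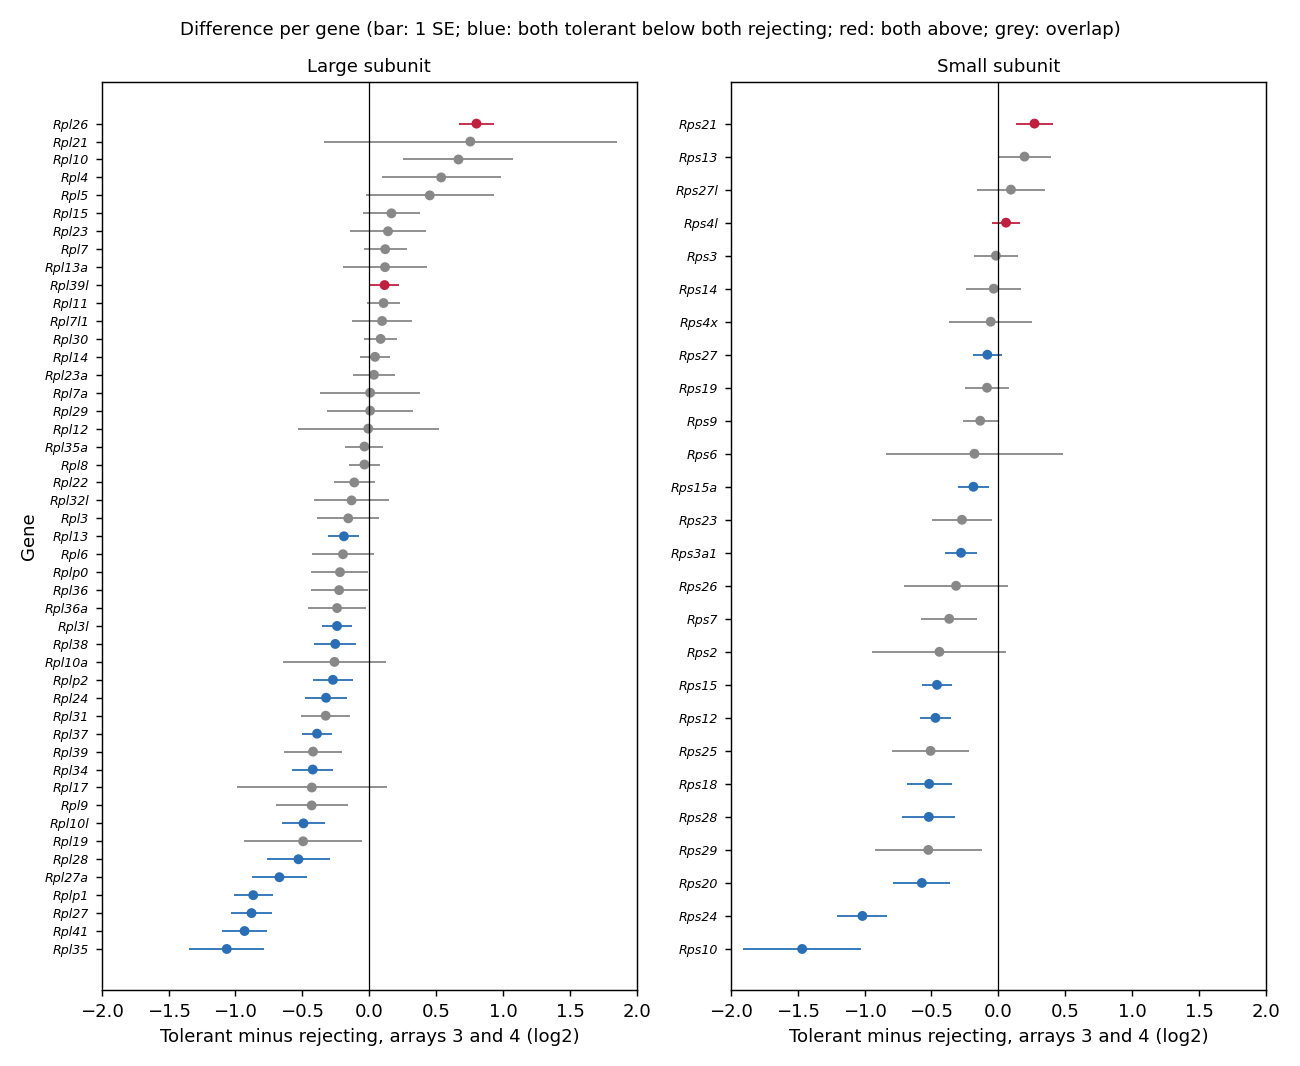
Tolerant minus rejecting difference (log2) on the arrays numbered 3 and 4 for each gene of the large (left) and small (right) subunit, with 1 standard error from limma (n = 2 arrays a group). Of the 73 genes, 24 (blue) have both tolerant values below both rejecting values, 4 (red) have both above, and the others (grey) overlap.

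This count depended on single arrays. With rejecting array 4 left out, 28 genes were lower without overlap and 31 higher, or 38.4% and 42.5%, while all genes gave 37.7% and 33.4%. With rejecting array 3 left out, 55 were lower and 5 higher, or 75.3% and 6.85%, against 34.8% and 36.2% of all genes. Without tolerant array 3 there were 28 lower genes, 38.4% against 38.4% of all genes, and 11 higher, 15.1% against 30.4%. Without tolerant array 4 there were 37 lower, 50.7% against 31.6%, and 7 higher, 9.59% against 36.7%. The median difference of the small subunit probe sets, -0.33 with all 4 arrays, was -0.014 without rejecting array 4 and -0.52 without rejecting array 3. That of the large subunit, -0.018 with all 4, was 0.26 without rejecting array 4 and -0.55 without rejecting array 3.

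The stalk of the large subunit, which recruits the translation factors, is made of Rplp0, Rplp1 and Rplp2 on a base that includes Rpl12. Rplp1 had log2 values of 4.25 and 4.32 in rejecting samples 3 and 4 and of 3.25 and 3.59 in tolerant samples 3 and 4. Both tolerant values lay below both rejecting values, by -0.87 ± 0.15 (SE, n = 2 a group), with an adjusted p of 0.224 in limma's fit. All 3 of its probe sets had differences below 0. Rplp0, the scaffold of the stalk, measured 3.19 and 3.81 for rejecting and 3.29 and 3.27 for tolerant cells, so that the tolerant values lay between the rejecting ones. Rpl12 measured 2.44 and 4.12 against 3.15 and 3.40, with the same order. Rplp2 measured 0.79 and 1.03 against 0.77 and 0.50, values at or below the line on all 4 arrays. By the representing probe set, differences were thus below 0 for 4 of 4 stalk genes, where 51.7% of all genes lay below 0. Of these, 2 of 4 showed no overlap, where 20% of all genes were lower in that way. The difference of Rpl12 was only -0.008, and 1 of its 8 probe sets lay below 0. That difference turned to 0.070 after quantile normalization again and to 0.084 after cyclic loess.

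Proteins that line or ring the exit of the peptide tunnel differed among themselves. Rpl35, which contacts factors that dock at the exit, measured 3.22 and 3.73 in rejecting samples 3 and 4 and 2.07 and 2.76 in tolerant samples 3 and 4. Its difference was -1.07 ± 0.28 (SE, n = 2 a group), the lowest of the large subunit, with an adjusted p of 0.477 in limma's fit. Rpl26, another protein of the exit, ran the other way, with 0.71 and 0.70 for rejecting and 1.64 and 1.37 for tolerant cells. Its difference was 0.80 ± 0.13 (SE, n = 2 a group), the highest of all 73 genes, at an adjusted p of 0.224 in limma's fit. The rejecting values of Rpl26 lay below the line and the tolerant values above it, so the rejecting level is known only as a bound. Rpl26 was also higher without overlap on the arrays numbered 1 and 2, at 0.36 and 0.26 against 0.78 and 0.51, all 4 below the line.

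Rpl39, a short protein inside the tunnel, measured 4.36 and 3.94 against 3.49 and 3.96, and overlapped by a small margin. Rpl23a, a docking site at the exit, measured 2.39 and 2.76 against 2.69 and 2.53. Rpl4, which reaches into the tunnel, measured 0.69 and 2.12 against 1.93 and 1.96, and Rpl17 measured 2.21 and 4.00 against 2.50 and 2.85. In the representing probe sets of Rpl4, Rpl17 and Rpl23a the tolerant values lay between the 2 rejecting values. Other probe sets of Rpl23a went the other way. Of its 13 probe sets 12 lay below 0, with a median of -0.44 over all 13, and 5 were lower without overlap. All 17 probe sets of Rpl17 lay below 0, and 7 of them were lower without overlap. Counted by the representing probe set, 3 of these 6 tunnel genes had a difference below 0, where 51.7% of all genes did. Of the 6, 1 was lower without overlap and 1 was higher, where 20% and 19.6% of all genes were.

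Rpl10, which joins the subunit late and completes it, measured 2.35 and 3.66 in rejecting samples 3 and 4 and 3.74 and 3.60 in tolerant samples 3 and 4. Rejecting array 3 stood apart from the other 3 values, and the difference of 0.67 ± 0.41 (SE, n = 2 a group) had an adjusted p of 0.768 in limma's fit. Rpl3, near the catalytic centre, measured 1.03 and 1.63 against 1.00 and 1.34, and Rpl8 measured 1.29 and 1.24 against 1.15 and 1.32. Neither separated the groups. Rpl5 and Rpl11 carry the 5S ribosomal RNA and, when free, bind the p53 regulator Mdm2. Rpl5 measured 0.82 and 2.33 against 1.87 and 2.19, and Rpl11 measured 1.53 and 1.73 against 1.66 and 1.81. In both genes the groups overlapped.

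Rpl27 and Rpl41 had 2 of the 3 smallest p-values among large subunit genes with lower tolerant values. Rpl27 measured 3.76 and 4.06 in rejecting samples 3 and 4 and 3.13 and 2.92 in tolerant samples 3 and 4, a difference of -0.88 ± 0.15 (SE, n = 2 a group). Its adjusted p was 0.226 in limma's fit, and 4 of 4 probe sets lay below 0. In samples 1 and 2 it measured 2.42 and 2.76 against 1.89 and 1.82, again without overlap and above the line on all 4. Rpl27 is therefore a member with lower tolerant values in both sets of arrays, and over all 8 arrays its difference was -0.81 ± 0.42 (SE, n = 4 a group). Rpl41, which encodes the shortest ribosomal protein, measured 5.13 and 5.53 against 4.30 and 4.49. Its difference was -0.93 ± 0.17 (SE, n = 2 a group), with an adjusted p of 0.240 in limma's fit, and 5 of 5 probe sets lay below 0. The representing probe set held the same values as another, so these 5 are not separate measurements. After quantile normalization again the difference of Rpl41 was -0.39 and its groups overlapped, and after cyclic loess it was -0.63. In samples 1 and 2 Rpl41 measured 1.70 and 1.36 against 2.00 and 0.85, with overlap.

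Rpl28, named after its values were seen, measured 4.04 and 4.66 against 3.66 and 3.98, and 5 of 5 probe sets were lower without overlap. Its difference was -0.53, or -0.30 after quantile normalization again and -0.33 after cyclic loess, where the groups of Rpl28 overlapped. Rpl38, known for its part in the translation of Hox mRNAs in mouse development, measured 1.96 and 2.33 against 1.83 and 1.95, a difference of -0.25 ± 0.16 (SE, n = 2 a group). The Rpl38 probe set 10544812 had the smallest p of all members in this fit, with a difference of -0.85 ± 0.10 and the adjusted p of 0.129 given above. The representing probe set of Rpl38 ran the other way on the arrays numbered 1 and 2, at 0.88 and 1.03 against 1.12 and 1.67. Rpl13a, which silences inflammatory mRNAs when it leaves the ribosome, measured 3.74 and 4.14 against 4.51 and 3.60, with overlap. Rpl22, which is needed for the development of T cells, measured 1.14 and 1.40 against 1.30 and 1.01.

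Paralogues of large subunit genes were near or below the line. Rpl39l, of the testis, stayed between 0.25 and 0.43 in samples 3 and 4 of both groups, and Rpl3l, of muscle, lay between 0.24 and 0.57. Rpl7l1 measured 0.61 and 0.85 for rejecting and 0.52 and 1.13 for tolerant cells. Rpl10l, a copy of Rpl10 used in the testis, measured 1.50 and 1.13 against 0.91 and 0.73, a difference of -0.49 ± 0.16 (SE, n = 2 a group). Its probe set can share sequence with Rpl10, whose difference had the opposite sign. Of these 4 copies and Rps27l, 0 lay above the line on all 4 arrays.

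**Figure D3:**
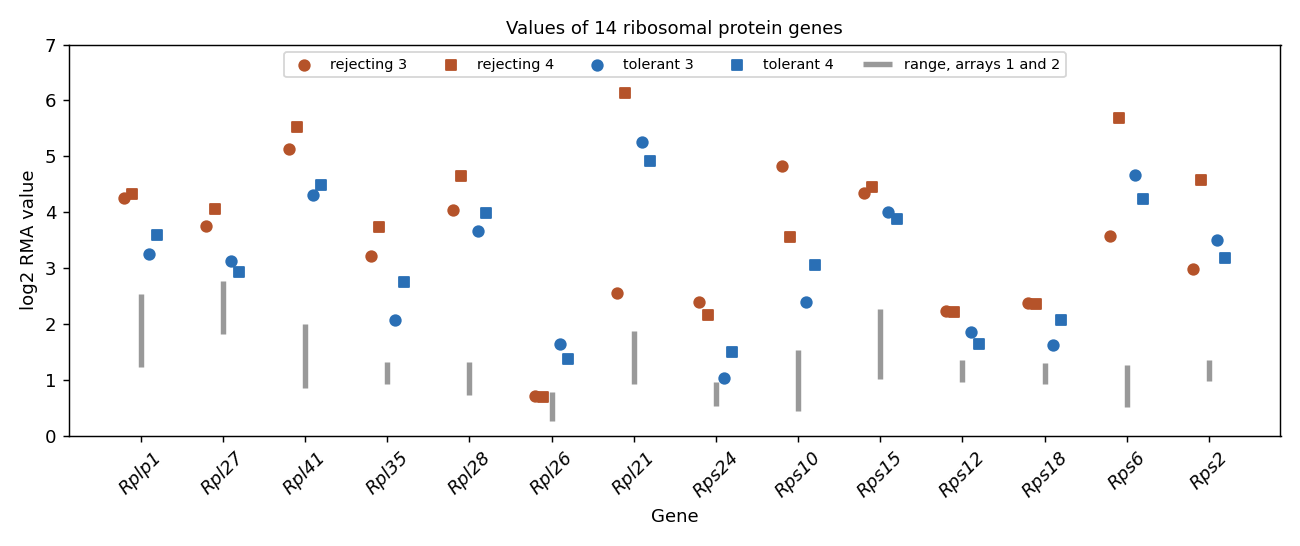
Log2 RMA values of 14 genes on rejecting (brown) and tolerant (blue) arrays 3 (circles) and 4 (squares), with the range over the 4 arrays numbered 1 and 2 as a grey bar. Rplp1, Rpl27, Rpl41, Rpl35, Rps24 and Rps10 have both tolerant values below both rejecting values, Rpl26 has both above, and in Rpl21, Rps6 and Rps2 the rejecting arrays lie on either side of the tolerant ones.

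In the small subunit, the difference lowest in value was that of Rps10, a protein of the head of the subunit that is modified when ribosomes collide. Rps10 measured 4.83 and 3.56 in rejecting samples 3 and 4 and 2.40 and 3.05 in tolerant samples 3 and 4. The difference was -1.47 ± 0.44 (SE, n = 2 a group), a 2.76-fold lower level, with an adjusted p of 0.561 in limma's fit. All 3 of its probe sets were lower without overlap. Arrays 1 and 2 gave a like order for Rps10, which measured 1.53 and 1.41 against 0.44 and 0.77, a difference of -0.86 ± 0.17 (SE, n = 2 a group) with an adjusted p of 0.936 in limma's fit. Tolerant values on those arrays lay below the line. Over all 8 arrays the difference was -1.17 ± 0.84 (SE, n = 4 a group), since the sets of arrays differ in level.

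Rps24, one of the proteins whose loss causes Diamond-Blackfan anaemia, measured 2.39 and 2.16 in rejecting samples 3 and 4 and 1.03 and 1.49 in tolerant samples 3 and 4. The difference was -1.02 ± 0.19 (SE, n = 2 a group), with an adjusted p of 0.261 in limma's fit, and 4 of 4 probe sets were lower without overlap. In samples 1 and 2 it measured 0.54 and 0.79 against 0.70 and 0.97, with overlap and below the line. Rps15, which sits near the decoding site, measured 4.34 and 4.45 against 4.00 and 3.87, a difference of -0.46 ± 0.11 (SE, n = 2 a group). It was -0.25 after quantile normalization again and after cyclic loess, and with the latter the groups of Rps15 overlapped. Rps12 measured 2.23 and 2.21 against 1.86 and 1.65, a difference of -0.47 ± 0.12 (SE, n = 2 a group). Both separated the groups on these arrays, at adjusted p of 0.436 and 0.457 in limma's fit.

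Rps18, of the head of the subunit, measured 2.37 and 2.35 against 1.62 and 2.06, a difference of -0.52 ± 0.17 (SE, n = 2 a group). All 7 of its probe sets were lower without overlap, down to -1.08 ± 0.13 (SE, n = 2 a group) for probe set 10411393, whose adjusted p was 0.138 in limma's fit. When the spread was taken from all 8 arrays, 3 members passed, and all 3 were probe sets of Rps18. Their adjusted p in limma's fit was 0.0124, 0.0497 and 0.0288. The same setting called 81 of all probe sets.

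Rps28, at the exit of the mRNA channel, measured 3.57 and 3.05 against 2.89 and 2.68. It was lower without overlap on the arrays numbered 1 and 2 also, at 1.78 and 1.44 against 1.23 and 1.07, the tolerant values below the line. Rps26, its neighbour, measured 3.31 and 4.55 against 3.67 and 3.56, and Rps14, of the platform, measured 0.93 and 1.46 against 1.04 and 1.28. In both the tolerant values lay between the rejecting ones. Rps6, the substrate of the S6 kinases and a marker of mTOR activity by its phosphorylation, measured 3.57 and 5.69 against 4.67 and 4.23. Its RNA level thus differed more between the rejecting arrays than between the groups, and its difference of -0.18 ± 0.66 (SE, n = 2 a group) turned to 0.28 after quantile normalization again and to 0.081 after cyclic loess. Rps2, at the entry of the mRNA channel, measured 2.99 and 4.58 against 3.51 and 3.18, and Rps3, also at the entry, measured 1.01 and 1.02 against 0.78 and 1.21.

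Rps19, the gene most often mutated in Diamond-Blackfan anaemia, measured 1.48 and 1.84 against 1.47 and 1.68, a difference of -0.085 ± 0.16 (SE, n = 2 a group). Rps23, of the decoding site, measured 1.54 and 2.19 against 1.56 and 1.63, and Rps25, used by viral internal entry sites, measured 1.37 and 2.07 against 0.94 and 1.49. Rps4x measured 1.36 and 2.28 against 1.60 and 1.92. By the representing probe set the groups overlapped in all 4. Of the 6 probe sets of Rps25, however, all lay below 0 and 5 were lower without overlap. Lower without overlap were also 2 of the 5 probe sets of Rps23 and 1 of the 5 of Rps4x. Rps27 measured 1.61 and 1.60 against 1.45 and 1.60, with the closest pair differing by less than the rounding shown. Its p53-induced copy Rps27l lay between 0.027 and 0.67, below the line on all 4 arrays. Rps21, at 1.21 and 1.16 against 1.62 and 1.29, was the small subunit gene with the highest difference, 0.27 ± 0.14 (SE, n = 2 a group), at an adjusted p of 0.724 in limma's fit.

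The 2 rejecting arrays of this set differed more from each other in ribosomal protein genes than the 2 tolerant arrays did. The value on rejecting array 4 exceeded that on rejecting array 3 in 57 of 73 genes, by a median of 0.37. The median was 0.39 for the large and 0.19 for the small subunit, against 0.0998 over the 1633 probe sets above the line, members included. Tolerant array 4 exceeded tolerant array 3 in 44 genes, by a median of 0.11, against -0.093 over the probe sets above the line. The gap between the rejecting arrays was larger than the difference between the groups in 47 of 73 genes, and that between the tolerant arrays in 35. In 22 genes both tolerant values lay between the 2 rejecting values. These counts were not made over all genes, so no share of all genes stands beside them. A gap between single arrays also varies more than a difference between means of 2 arrays.

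In 12 genes rejecting array 4 exceeded rejecting array 3 by more than 1, and in 2 genes, Rps10 and Rps29, it lay below by more than 1. Rpl21 had the widest gap, 3.58, followed by Rps6 with 2.12, Rpl17 with 1.79, Rpl12 with 1.68 and Rps2 with 1.59. The widest gap between the tolerant arrays was 0.91 in size, in Rpl13a. Rps29, a zinc-binding protein of the head, measured 3.56 on rejecting array 3 and between 2.28 and 2.52 on the other 3 arrays. Genes with high values on rejecting array 3 and genes with high values on rejecting array 4 thus both occurred, the latter more often.

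**Figure D4:**
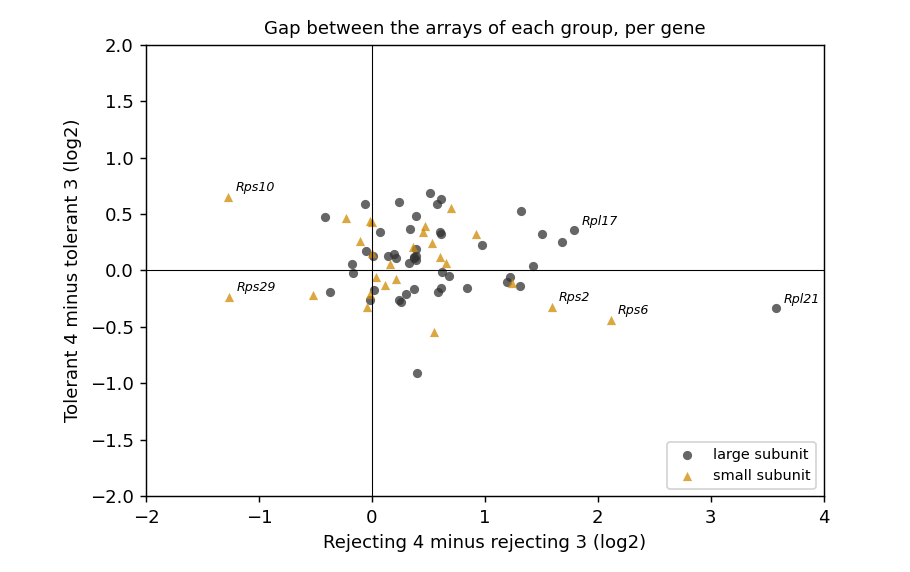
Gap between the arrays of a group for each gene, rejecting array 4 minus 3 on the horizontal axis and tolerant array 4 minus 3 on the vertical axis (log2), with large subunit genes as circles and small subunit genes as triangles. Rejecting gaps reach 3.58 in Rpl21 and tolerant gaps reach 0.91 in size, and 57 of 73 genes lie to the right of 0.

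Rpl21 carried more probe sets than any other member, 41 of the 380. On rejecting array 3 their log2 values lay between 1.49 and 2.71, and on rejecting array 4 between 4.01 and 6.13. Tolerant array 3 gave 3.06 to 5.26 and tolerant array 4 gave 3.05 to 4.92. In 41 of 41 probe sets rejecting array 4 lay above both tolerant values and rejecting array 3 lay below both. The difference between the groups was above 0 in all 41, between 0.16 and 0.78, with groups that overlapped. Without rejecting array 4 limma's fit called 28 members, all 28 with higher tolerant values and all of Rpl21, among 48 probe sets in all (0.226%). In that fit rejecting array 3 stands alone and is assumed to vary like the tolerant arrays.

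Probe sets of the same gene agreed in some genes and not in others. Of the 55 genes with several probe sets, 24 had differences all below 0 on the arrays numbered 3 and 4, 7 had differences all above 0 and 24 had both signs. The 18 probe sets of Rps2 and the 17 of Rpl17 lay below 0 throughout. Rpl29, with 24 probe sets, had 6 below 0, and Rpl7a had 10 of 17 below 0. Rps12 had 7 of 12 below 0, of which 6 were lower without overlap, while the other five lay above 0 without separation. For Rps6 the representing probe set lay below 0 and the other 7 of 8 lay above it. Members that share sequence are not independent, and 17 member probe sets held the same values as another one. Signal from a gene and from its near-identical pseudogene copies cannot be told apart on these arrays.

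**Figure D5:**
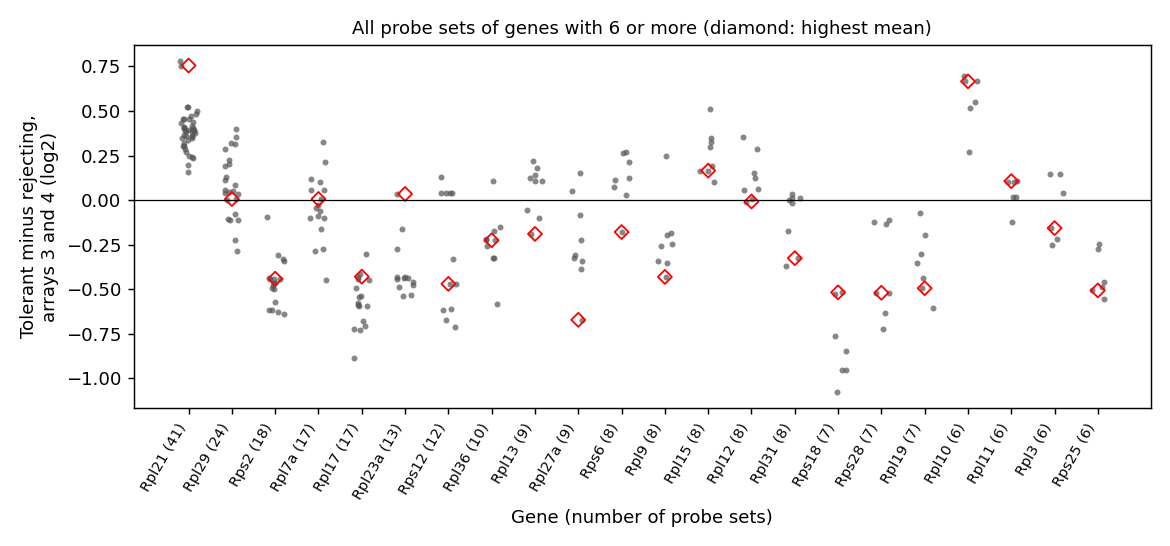
Tolerant minus rejecting difference (log2, arrays numbered 3 and 4) of every probe set of the genes with 6 or more probe sets (grey points), the representing probe set marked by a red diamond. The 41 probe sets of Rpl21 all lie above 0, the 18 of Rps2 and the 17 of Rpl17 all lie below 0, and those of Rpl29 and Rpl7a lie on both sides.

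On the arrays numbered 1 and 2, where few members were above the line, 0 of 380 members passed in limma's fit, as did 0 of all probe sets (0%). At an unadjusted p under 0.05, 29 members were lower and 7 higher, against 2.69% and 2.46% of all. Both tolerant values lay below both rejecting values in 14 of 73 genes, where 17% of all genes did so, and above them in 6, where 17.2% did. Rpl27, Rpl27a, Rpl35, Rps10, Rps12, Rps27 and Rps28 were lower without overlap in both sets of arrays. In all of them but Rpl27 both tolerant values on the arrays numbered 1 and 2 lay below the line. For Rps27 the rejecting values there did so too, and on the arrays numbered 3 and 4 its groups overlapped after median centring. These 7 genes made up 29.2% of the 24 lower genes on the arrays numbered 3 and 4 and 50% of the 14 on those numbered 1 and 2. Over all genes, the 585 lower in both sets made up 15.5% of the 3771 and 18.3% of the 3205 lower ones. The difference between these shares was not tested. A smaller part of all probe sets than of the member genes lay above the line on every array. Rpl10a had the highest difference on the arrays numbered 1 and 2, at 0.98 and 0.48 for rejecting and 1.76 and 1.56 for tolerant cells. In rejecting samples 3 and 4 it measured 2.90 and 4.13, with tolerant values of 3.28 and 3.22 between them. Rpl6 measured 0.50 and 0.43 against 1.01 and 0.76 in samples 1 and 2, higher without overlap and not above the line on any of the 4 arrays. Rps9 measured 1.62 and 1.10 against 1.54 and 1.61, with overlap. Across the 73 genes the differences of the 2 sets correlated with r = 0.21, or 0.080 for the large and 0.50 for the small subunit. This is a description over genes that share arrays and partly sequence.

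Whether the difference itself changed between the sets of arrays was tested as an interaction, in which 0 of 380 members passed in limma's fit, against 0.0566% of all probe sets. At an unadjusted p under 0.05, 25 members had a lower and 2 a higher difference on the arrays numbered 3 and 4, against 2.89% and 4.24% of all. The smallest adjusted p of a member was 0.101, for the Rps18 probe set 10411393. Among the representing probe sets it was 0.256, for Rps24, with -1.19 ± 0.27 (SE, n = 2 a group and set). Without rejecting array 4 the interaction called 33 members, 32 of Rpl21 and 1 of Rpl10, among 76 probe sets in all (0.358%).

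Other genes of the pathway were listed with earlier results of these data known. Of 7 ribosomal proteins with other names, Fau and Rpsa were measured. Fau, the precursor of a small subunit protein fused to a ubiquitin-like domain, measured 3.78 and 3.84 in rejecting samples 3 and 4 and 3.17 and 3.07 in tolerant samples 3 and 4. Rpsa, a small subunit protein also known as the laminin receptor, measured 2.06 and 2.69 against 1.48 and 1.58. Both were lower without overlap, and their adjusted p was 0.217 and 0.459 in limma's fit.

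Other mRNAs with a TOP tract went both ways. Of 14 measured, 0 were called, 9 had a difference above 0, 4 were higher and 1 lower without overlap, where 19.6% and 20% of all genes were, and the median was 0.028. Eef1a1, an elongation factor, measured 4.34 and 5.51 against 4.84 and 4.77, and Eef2 measured 2.89 and 3.62 against 3.14 and 3.38. Both showed tolerant values between the rejecting ones, as Rpl12 and Rps6 did. Vim, an intermediate filament of mesenchymal and blood cells, measured 2.42 and 3.29 against 3.81 and 4.08. Of 14 regulators of TOP mRNAs 0 were called, 13 had a difference above 0 and 8 were higher without overlap, where 19.6% of all genes were. Of these regulators 7 lay below the line on all 8 arrays, Mtor, Rptor, Mlst8, Rheb, Eif4ebp1, Tsc2 and Myc. Larp1, the protein that binds the tract, measured 1.38 and 1.42 against 2.08 and 1.91, a difference of 0.59 ± 0.11 (SE, n = 2 a group) with an adjusted p of 0.274 in limma's fit. Of 9 genes measured from a list of 10 mutated in Diamond-Blackfan anaemia, 6 had a difference below 0, where 51.7% of all genes did. Their median was -0.085, and 2 were lower and 1 higher without overlap, where 20% and 19.6% of all genes were. This list is not complete and leaves out Rpl15, among others.

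Small nucleolar RNAs (snoRNAs) that guide the modification of ribosomal RNA are cut from introns of many ribosomal protein genes. Of 15 such genes that lie within the span of a member, 0 were called and 10 lay below the line on all 8 arrays. All 15 had a difference below 0, where 51.7% of all genes did, and 4 were lower without overlap, where 20% of all genes were. Snora52, within Rplp2, measured 4.85 and 4.32 in rejecting samples 3 and 4 and 1.74 and 2.41 in tolerant samples 3 and 4. Its difference was -2.51 ± 0.28 (SE, n = 2 a group), with an adjusted p of 0.111 in limma's fit. The table of genes used here gives no strand, so that the orientation of these snoRNAs to their hosts was not checked.

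Markers of several other cell types had higher levels in tolerant than in rejecting samples 3 and 4. Fibroblast and matrix markers had a difference above 0 in 12 of 12 genes and were higher without overlap in 9, where 19.6% of all genes were. Of them Bgn rose in limma's fit (adjusted p = 0.00826). Bgn kept that call in 11 of 15 alternatives and lost it without tolerant array 3 (0.326), without tolerant array 4 (0.137), with all probe sets of the table (0.118) and with trend and robust moderation (0.0815). Their summed linear level was 44.2 and 36.1 in rejecting samples 3 and 4 and 118 and 99.3 in tolerant samples 3 and 4. Kidney tubule markers had a difference above 0 in 12 of 14 genes, and Slc12a3 and Calb1 rose in limma's fit (adjusted p = 0.0359 and 0.0440). Slc12a3 kept the call in 12 of 15 alternatives and lost it without tolerant array 3 (0.342), without tolerant array 4 (0.247) and with all probe sets of the table (0.158). Calb1 kept it in 6 of 15, lost it without any 1 of the 4 arrays (adjusted p of 0.0623 to 0.326 in limma's fit), and had an adjusted p of 0.0693 with the replicate block. Their sums were 24.0 and 24.4 against 146 and 65.6. Macrophage and monocyte markers summed to 24.7 and 17.5 against 39.8 and 44.6, and T cell markers to 25.0 and 28.4 against 29.6 and 41.9. The B cell markers summed to 9.97 and 9.81 against 10.1 and 9.08, with Ms4a1, Cd79b and Pax5 below the line on all 8 arrays. Endothelial markers summed to 14.8 and 14.2 against 18.7 and 18.0. The part of these cells in the values of the ribosomal protein genes was not tested.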

How the data were processed

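The authors deposited log2 values of 35556 probe sets for 8 arrays. Per the submitters' processing notes, Affymetrix Expression Console and RMA were used. RMA subtracts background, makes the arrays' probe intensities alike in distribution and gives 1 value per probe set, so levels are relative within this table. Software versions and the probe design's genome build were not given in the sources used here, and the log base was taken as 2. The number of arrays limits the precision, and no depth applies.

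Gene symbols came from the platform annotation: 21218 probe sets had 1 symbol, 1881 several and 12457 none listed. All 73 member genes matched a RefSeq gene table of GRCm38.p6. Tests used lmFit and eBayes of limma 3.58.1 in R 4.3.3, were 2-sided, and took Benjamini-Hochberg adjusted p over all 21218 probe sets under 0.05 as a call. It was fitted to all 8 arrays, to those numbered 3 and 4, to those numbered 1 and 2, and as an interaction of set and group. The scripts were tested on simulated data. Figures used Python 3.11.15 and matplotlib 3.10.9.

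Members, gene lists, sets of arrays and tests were chosen with earlier results of these data known. Named were, for each subunit and each of the first 3 fits, the 3 genes of smallest p in each direction, and a fixed list by role. Genes and probe sets singled out beyond these, such as Rpl28, Rpl29, Rpl7a, Rps29 and the Rps18 probe sets, were named after their values were seen. Same-numbered arrays deviated together from their group means, with correlations over probe sets of 0.499, 0.507, 0.410 and 0.599. All exceed 0.1, the bound used for taking same-numbered arrays as pairs. These correlations cannot show a pairing by number, because same-numbered arrays also lie in the same set and the sets differ in level. Arrays of different number within a set were not compared in this way. The labels state no pairing either. The reported fits, with their SEs and p-values, leave the pairing out, and the fit with the number as a block is an alternative. Alternatives were leaving out each array, the replicate number or the set as a block, 3 further normalizations, a filter on dim probe sets, probe sets averaged by gene, all probe sets of the table, other moderation, array weights, another threshold and the spread of all 8 arrays.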

Additional observations from a re-analysis of the deposited data

Results flagged for a closer look

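In a group of 4 arrays, a value was singled out where its gap to the nearest other value exceeded Dixon's 95% critical share of the group's range, which chance does in about 1 group of 20. Of the named genes, 4 had such a value. Rpl5 measured 2.33 on rejecting array 4, and the nearest other rejecting value was 0.82. Rpl7l1 measured 1.13 on tolerant array 4, against 0.58 for the nearest. Rps4l measured 0.57 on tolerant array 1, below the nearest value of 1.11. Rpl39l measured 0.54 on rejecting array 1, against 0.26 for the nearest, with all of its values below the background line. Rpl5 on rejecting array 4 belongs to the 12 genes in which that array exceeded rejecting array 3 by more than 1.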

How the results depend on the processing

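The count of 0 called members over all 8 arrays and on the arrays numbered 1 and 2 was 0 under every alternative run. For the arrays numbered 3 and 4 leaving out 1 array gave 0 to 28 called members, and the spread of all 8 arrays gave 3. The interaction gave 0 to 33 when 1 array was left out. With the replicate block, 0 members were called in each of the 3 fits that took it. Over all probe sets on the arrays numbered 3 and 4 the block called 8, of which 5 were among the 11 called without it. The alternatives for Bgn, Slc12a3 and Calb1 were chosen after seeing the data. The median difference of the large subunit on the arrays numbered 3 and 4 ranged from -0.55 to 0.26 when 1 array was left out. That of the small subunit ranged from -0.52 to -0.014, and was -0.21 when probe sets were averaged by gene. The large subunit median on arrays 1 and 2 was -0.099 after cyclic loess and -0.14 with the filter on dim probe sets, and ranged from -0.13 to -0.086 when 1 array was left out. Member genes lower without overlap ranged from 28 to 55 and higher from 5 to 31 when 1 array was left out, alternatives chosen after seeing the data. The members' shares were then 38.4% to 75.3% lower and 6.85% to 42.5% higher. Shares of all genes rose as well when 1 array was left out. They were 20% lower and 19.6% higher with all 4 arrays, and 31.6% to 38.4% and 30.4% to 36.7% without 1. Over all 8 arrays the large subunit median ranged from -0.35 to 0.22 and the small from -0.41 to 0.074. Leaving out 1 array gave differences of -0.18 to 1.25 for Rpl4 and of -0.032 to 0.42 for Rps13 on arrays 3 and 4, the lowest without rejecting array 3. Over all 8 arrays it gave -0.10 to 0.19 for Rps21, below 0 without tolerant array 3, and -0.081 to 0.18 for Rps27l. Rps27l was below 0 without rejecting array 2 (-0.029), rejecting array 3 (-0.081) or tolerant array 3 (-0.031). Quantile normalization again gave -0.031 for Rps21. The cause was not tested, except that fewer arrays enter these fits. Signal near the background line limits most members on the arrays numbered 1 and 2.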

Other observations

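Mitochondrial ribosomal proteins, which serve the separate ribosome of that organelle, gave 74 measured genes. Of these, 50 were above the background line on none of the 4 arrays numbered 3 and 4 and 8 were above it on all 4. Their median difference was -0.048, with 45 of 74 below 0, 12 lower and 11 higher without overlap (20% and 19.6% of all genes), and 0 called in limma's fit. Of 39 measured genes of ribosome biogenesis, 18 had a difference below 0, 3 were lower and 7 higher without overlap, and 0 were called, with a median of 0.0023. Npm1, a nucleolar chaperone of ribosome assembly, measured 1.02 and 2.65 in rejecting samples 3 and 4 against 1.13 and 0.97 in the tolerant ones, and rejecting array 4 was again the highest.

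Cytosolic ribosomal protein genes with 1 probe set had a median difference closer to 0 than those with several. There the 18 genes with 1 probe set had a median difference of -0.036, with 11 below 0, 5 lower and 2 higher without overlap. The 55 genes with several had a median of -0.25, with 41 below 0, 19 lower and 2 higher without overlap. Of all genes, 51.7% had a difference below 0 on these arrays, numbered 3 and 4, and 20% were lower and 19.6% higher without overlap. The difference between member genes with 1 and with several probe sets was not tested. The classes also differ in signal. Of the 7 member genes above the background line on none of the arrays numbered 3 and 4, all but Rps15a had 1 probe set. They were Rpl30, Rpl35a, Rpl39l, Rpl3l, Rplp2 and Rps27l.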
